A study of Mus musculus with 2 samples.

Results

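The marginal nuclei of the RNAlater dataset were compared by the share of their RNA that came from the mitochondrial genome. The members were the barcodes of the RNAlater matrix with at least 200 genes, at most 8000 unique molecular identifiers (UMIs, 1 per counted RNA molecule), at most 10% mitochondrial UMIs, and at least 0.5% of UMIs from the 8 genes Kcnq1, Kcne1, Esrrb, Lmx1a, Abcg1, Heyl, Stac and Slc12a2. Of the 3868 barcodes in this matrix, 2329 were within the limits and 773 met the rule, out of 8616 barcodes in both matrices of the series. The comparison set the 160 nuclei with a mitochondrial share of 1% or more against the 467 nuclei under 0.5%, and the 146 nuclei between these limits were kept for the gradient.

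The nuclei were isolated from the stria vascularis (SV) of CBA/J mice at postnatal day 30, with no genotype or treatment given in the labels and with the tissue of several animals pooled. In the RNAlater dataset the tissue was stored in RNAlater, a solution that preserves RNA, before the nuclei were isolated. In the MethFix dataset, which serves here only for comparison, the isolated nuclei were fixed in methanol. Each dataset is 1 library, so no test between groups of samples was possible and no p-value is given. Values are given with exact 95% intervals, Poisson for UMIs and conditional binomial for ratios, which cover counting error only. Intervals of shares of nuclei (binomial) and of medians over nuclei (order statistics) cover the spread between nuclei within 1 library. They do not measure a difference between animals or libraries. Nuclei of 1 library share their capture and sequencing and are not replicates.

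Marginal cells are the epithelial cells of the SV that face the endolymph, the potassium-rich fluid of the cochlear duct. They take up potassium through the cotransporter encoded by Slc12a2 and the sodium pump, and secrete it through the channel formed by Kcnq1 and Kcne1. Mitochondrial transcripts are made and translated inside mitochondria, outside the nucleus, and their share is widely read in nuclear preparations as a sign of cytoplasmic material that stayed with a nucleus. Mature mRNA of highly translated genes is found mostly in the cytoplasm, whereas long noncoding RNAs such as Malat1 stay in the nucleus.

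The label was checked against genes that the rule did not use. Over all 773 nuclei, Spp1 (osteopontin, a secreted phosphoprotein) had 2918 CPM (its UMIs per 1000000 nonmitochondrial UMIs, with a 95% interval of 2866 to 2970), against 454 CPM in the intermediate nuclei of the same matrix and 584 CPM in the remaining barcodes. Dnase1, which encodes a secreted endonuclease, had 2075 CPM against 242 and 373, and Cldn9, a tight junction claudin, had 144 CPM against 12.8 and 36.0. Kcne1, itself a rule gene, had 644 CPM against 45.7 and 87.1. The 3 markers outside the rule were thus highest in the marginal nuclei, while the order for Kcne1 was set by the rule. These markers were also chosen with earlier results of these data known, so the check is not independent. The markers were lower near the limit of the rule, where 83 of the 773 nuclei (10.7%) had a rule-gene sum of 0.5% to 1%. In these 83 nuclei Spp1 stood at 1376 CPM and Dct, an enzyme of melanin synthesis that marks intermediate cells, at 7065 CPM, with Slc26a7 at 555 CPM and Coch at 162 CPM. They made up 27 of the 160 nuclei at 1% or more (16.9%) and 42 of the 467 nuclei under 0.5% (8.99%). Values without them are therefore given beside several of the results that they moved. At the edge of the rule, Spp1 was at 734 CPM in the 34 nuclei with a sum of 0.5% to 0.6% and at 529 CPM in the 85 barcodes with a sum of 0.4% to 0.5%.

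The same barcode sequences appear in both matrices. Of the 3868 RNAlater barcodes, 3323 (85.9%) were also in the MethFix matrix, and so were 760 of the 773 marginal nuclei (98.3%). Of these 760, 690 fell in the same one of the 3 classes of mitochondrial share in both matrices, and the median ratio of the shares, MethFix over RNAlater, was 1.06. The MethFix counts of these barcodes were therefore not used as an independent repeat, and the comparison in the MethFix dataset further down used only barcodes found in that matrix alone. Which preparation the shared barcodes came from was not tested. RNAlater nuclei here means barcodes of the RNAlater matrix, with the preservation given by its label.

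The mitochondrial shares that formed the groups had a median of 2.04% (range 1.01% to 9.87%) in the nuclei at 1% or more and 0.244% in the nuclei under 0.5%. In all, 20828 mitochondrial UMIs stood against 797605 others in the first group (2.54% of the total) and 6446 against 2556759 in the second (0.251%). The ribosomal RNA mt-Rnr2 was the largest single source, with 8507 and 2354 UMIs. Depth was similar, with a median of 5842 UMIs and 2600 genes per nucleus at 1% or more and 5715 UMIs and 2548 genes under 0.5%. After each nucleus was thinned to 1000 UMIs, which left out 14 and 8 shallower nuclei, the medians were 710 and 699 genes.

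All 4 marginal markers were higher in the nuclei with more mitochondrial RNA. They were chosen with earlier results of these data known, so their shared direction is a description and does not stand for marginal genes in general. Spp1 had 3650 UMIs at 1% or more and 5859 under 0.5%, which gave 4576 CPM against 2292 CPM and a log2 ratio of 1.00 (0.94 to 1.06), just short of 2-fold. Over single nuclei, Spp1 ranged from 0 to 38084 CPM with a median of 3836 (3272 to 4472) at 1% or more, and from 0 to 8787 CPM with a median of 2068 (1893 to 2187) under 0.5%. Every nucleus under 0.5% lay within the range of the nuclei at 1% or more. The gene spans 5.93 kb on chromosome 5 (GRCm38, 104435118 to 104441050, plus strand).

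Kcne1, the small regulatory subunit of the potassium channel, had 743 and 1346 UMIs, or 932 CPM against 526 CPM, a log2 ratio of 0.82 (0.69 to 0.95). The median nucleus had 852 CPM (737 to 1010) at 1% or more and 451 CPM (398 to 494) under 0.5%. Since Kcne1 was 1 of the 8 genes that chose the nuclei, its level is partly set by the rule, but with the other 7 genes alone as the rule its log2 ratio stayed within the interval above. Dnase1 had 2862 CPM against 1799 CPM, a log2 ratio of 0.67 (0.60 to 0.74), with per-nucleus medians of 2491 and 1663 CPM. It lies on chromosome 16 (4036942 to 4040024, plus strand). Cldn9, which has a single exon, had 185 and 287 UMIs, or 232 CPM against 112 CPM, a log2 ratio of 1.05 (0.77 to 1.32). It was the 1 marker past 2-fold. After thinning, a Cldn9 UMI was found in 20.5% of the nuclei at 1% or more (14.3% to 28.0%) and in 10.5% of those under 0.5% (7.81% to 13.6%), and without thinning in 55.6% and 41.3%. In intermediate nuclei, which should lack it and had medians of 5235 and 5508 UMIs, the thinned shares were 0 of 54 nuclei (up to 6.60%) and 0.901% of 333 nuclei.

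The partner subunit of Kcne1 was not higher in the nuclei at 1% or more. Kcnq1, which forms the pore of the same channel, had 2934 CPM at 1% or more and 3100 CPM under 0.5%, a log2 ratio of -0.08 (-0.15 to -0.01). Its median nucleus had 2645 CPM (2417 to 2824) at 1% or more and 2969 CPM (2874 to 3105) under 0.5%. After thinning, a Kcnq1 UMI was found in 82.9% and 90.6% of these nuclei. Kcnq1, which is also a rule gene, was thus somewhat lower per nucleus. With a rule-gene sum of at least 1%, its log2 ratio was -0.05 (-0.12 to 0.01). The thinned shares were then 90.6% (84.2% to 95.1%) and 96.2% (93.9% to 97.8%), with overlapping intervals. Kcnq1 spans 321 kb on chromosome 7 (143106362 to 143427042, plus strand), while Kcne1 spans 13.5 kb. The transcription factor genes Esrrb and Lmx1a had log2 ratios of 0.00 (-0.07 to 0.07) and -0.34 (-0.45 to -0.23). Without the 83 nuclei near the limit of the rule, the ratio of Lmx1a was -0.19. Slc12a2 was the most abundant rule gene in UMIs, with 10065 CPM against 8875 CPM and a log2 ratio of 0.18 (0.14 to 0.22). Stac, Heyl and Abcg1 had log2 ratios of 0.04, 0.11 and -0.11. The summed rule genes, which the rule holds above its limit in both groups, were at 19808 CPM and 18601 CPM.

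The 4 marker differences did not rest on the 83 nuclei. With a rule-gene sum of at least 1%, which left 133 and 425 nuclei, the log2 ratios of Spp1, Kcne1, Dnase1 and Cldn9 were 1.00, 0.79, 0.66 and 1.02.

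Over finer classes of mitochondrial share, Spp1, Dnase1 and Kcne1 were higher in each class than in the one below it. Spp1 was at 2070 CPM in the 245 nuclei under 0.25%, 2551 CPM in the 222 nuclei from 0.25% to 0.5%, 3259 CPM in the 146 from 0.5% to 1%, 3895 CPM in the 78 from 1% to 2%, 4923 CPM in the 57 from 2% to 5% and 6758 CPM in the 25 from 5% to 10%. No interval of these 6 levels overlapped that of its neighbour. Dnase1 went from 1671 CPM in the lowest class to 3995 CPM in the highest, and Kcne1 from 511 CPM to 1411 CPM, with overlapping intervals between several neighbouring classes of Kcne1. Cldn9 did not follow this order throughout, with 106, 120, 157, 167, 317 and 261 CPM, and of its neighbouring intervals only those from 1% to 2% and from 2% to 5% were apart. Kcnq1 stayed between 2911 and 3108 CPM in all 6 classes. As a rule gene, its level is partly set by the rule in every class, and no rule without Kcnq1 was run. With a rule-gene sum of at least 1%, which left 14 of the 25 nuclei in the highest class, Kcnq1 was at 3060 to 3288 CPM in the lower 5 classes and at 3606 CPM (3166 to 4090) in the highest, and Spp1 ran from 2148 to 7271 CPM.

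**Figure D1:**
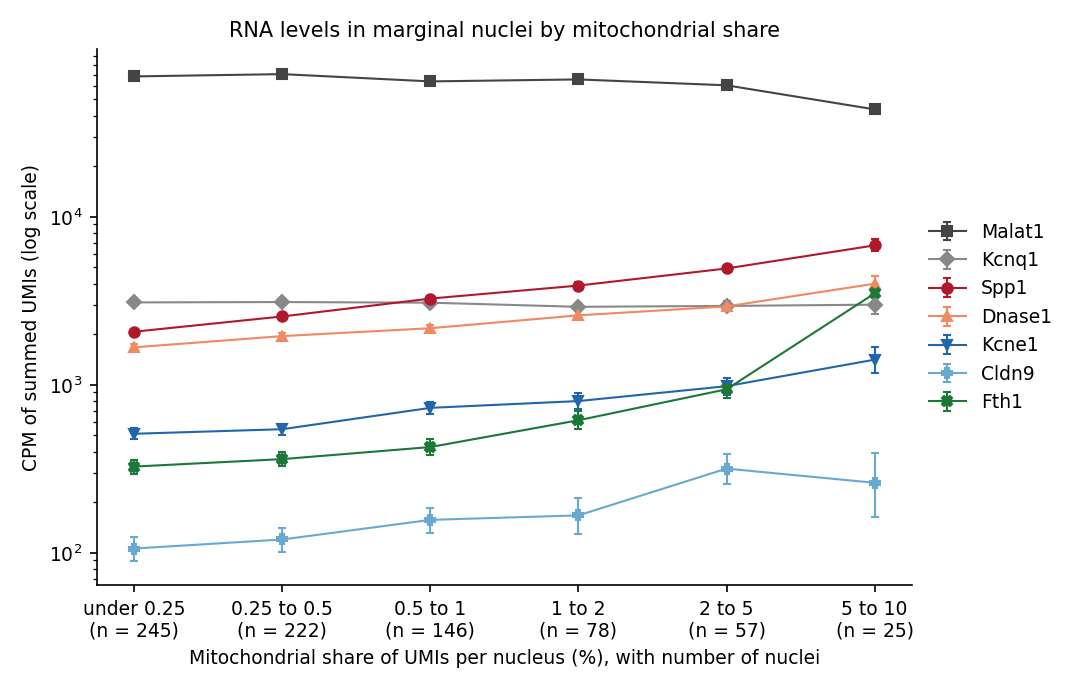
Summed level of 7 genes in CPM (log scale, y axis) in marginal nuclei grouped by mitochondrial share of UMIs in percent (x axis, number of nuclei below each class). Points are pooled levels and bars exact 95% Poisson intervals. Spp1 runs from 2070 to 6758 CPM, and Kcnq1, a rule gene, stays between 2911 and 3108 CPM.

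Fth1, the heavy chain of the iron store ferritin, had 326, 361, 426, 615, 940 and 3497 CPM from the lowest class to the highest. Malat1, a nuclear long noncoding RNA, had 68454, 70657, 63938, 65697, 60608 and 43580 CPM, so it was not lower in every class than in the one before. For both genes the largest step was into the highest class. The 25 nuclei of the highest class were shallower than the rest, with a median of 3377 UMIs against 5643 to 6188 in the other classes. Around the limits of the groups, Spp1 was at 4407 CPM (4060 to 4775) in the 26 nuclei from 0.9% to 1% and at 3443 CPM (3050 to 3873) in the 16 nuclei from 1% to 1.1%. It was at 3173 CPM in the 31 nuclei from 0.45% to 0.5% and at 2445 CPM in the 16 from 0.5% to 0.55%. Outside the limits, 324 barcodes of the RNAlater matrix met the marginal rule with over 10% mitochondrial UMIs. There Spp1 had 11613 CPM, Kcne1 2681 CPM, Kcnq1 702 CPM and Malat1 7864 CPM, and the median depth was 1952 UMIs. Dct was also high in these barcodes, at 10646 CPM. In the 76 of them with a rule-gene sum of at least 1%, Spp1 was at 24725 CPM, Kcne1 at 3234 CPM, Kcnq1 at 1397 CPM, Malat1 at 11276 CPM and Dct at 3496 CPM.

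For the other genes a ratio was computed where both groups together held at least 50 UMIs, and a gene was called where its level differed at least 2-fold. Of the 7773 genes tested, 279 (3.59%) were called higher and 80 (1.03%) lower in the nuclei at 1% or more, and the median log2 ratio was 0.01. With a scaling by the trimmed mean of M values (TMM), 206 were higher and 107 lower. The counting interval lay on 1 side of 0 for 279 of the 279 higher genes and 70 of the 80 lower genes. These counts largely follow from the 2-fold limit and the minimum of 50 UMIs that chose the genes. The interval lay wholly beyond 2-fold for 32 and 6. Over all 7773 genes tested, it lay on 1 side of 0 for 1457 (18.7%) and wholly beyond 2-fold for 38 (0.489%). In 63 of the higher and 23 of the lower genes a single nucleus held over 10% of the UMIs of the higher group. With the rule-gene sum of at least 1%, 198 of 7461 genes (2.65%) were higher and 56 (0.751%) lower.

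mRNAs of highly translated housekeeping genes were mostly on the higher side. Of 79 cytosolic ribosomal protein genes, 28 passed the minimum of 50 UMIs. Of these, 14 were called higher and 0 lower (3.59% and 1.03% over all genes). Their median log2 ratio was 1.03 against 0.01 over all genes tested. The UMIs of all 79 genes, with no minimum, summed to 1825 CPM (1733 to 1922) at 1% or more and 1006 CPM (967 to 1045) under 0.5%. Rpl23 and Rpl8, both of the large subunit, had log2 ratios of 1.72 (1.04 to 2.40) and 1.72 (1.21 to 2.24). The lowest members were Rps13 at -0.99 (-2.28 to 0.09), Rpl9 at -0.54 and Rpl6 at -0.44, whose intervals included 0. Without the 83 nuclei near the limit of the rule, 24 ribosomal protein genes were tested. Of these, 11 were called higher and 1 lower (2.65% and 0.751% over all genes), with a median of 0.97 and a highest ratio of 1.53. The nuclei left out held 30.3% of the UMIs of Rpl8 at 1% or more. Ribosomal protein genes have many processed pseudogenes, so some of their reads could be counted elsewhere or lost.

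Of 23 genes listed as translation factors or related genes, 20 were tested, with 3 called higher and 0 lower. The median log2 ratio was 0.53, where 3.59% of all genes tested were higher and 1.03% lower. The 3 were Eef2, Tpt1 and Eef1a1. Eef2, the translocase of the ribosome, was at 1.33 (1.01 to 1.65) with 187 CPM against 74.3 CPM. Eef1a1, which brings aminoacyl-tRNA to the ribosome, was at 1.25. Tpt1, at 1.26, encodes the translationally controlled tumor protein, which is not a classical translation factor. Of the 79 nuclear genes of the respiratory chain found in the files, 71 were tested, 20 were called higher and 0 lower (3.59% and 1.03% over all genes), with a median of 0.67 and summed levels of 6016 CPM and 4002 CPM. These genes encode mitochondrial proteins but are transcribed in the nucleus and translated in the cytoplasm, and none of their UMIs entered the mitochondrial share. Cox7a2, a subunit of complex IV, had 122 CPM against 42.6 CPM, a log2 ratio of 1.51. Ndufb10 of complex I and Uqcrq of complex III followed at 1.42 and 1.39, and Atp5g2, Atp5c1 and Ndufb4 were the lowest at -0.40, -0.30 and -0.24 with intervals that included 0. Without the 83 nuclei 70 respiratory chain genes were tested. Of these, 17 were called higher and 0 lower (2.65% and 0.751% over all genes), with a median of 0.61.

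Of 23 cytoskeletal and other abundant cytosolic mRNAs, 20 were tested and 8 were called higher (3.59% over all genes), with 20 of 20 ratios above 0 and a median of 0.82. Fth1 had 1039 CPM against 342 CPM, a log2 ratio of 1.60 (1.47 to 1.74), and per-nucleus medians of 723 and 325 CPM. Ftl1, the light chain of ferritin, had 527 CPM against 177 CPM, a log2 ratio of 1.57 (1.38 to 1.77), but 54.4% of the 31-base words of its transcripts also occur in Ftl1-ps1, so the split between these genes is uncertain. Tubb4b, a tubulin, had a log2 ratio of 1.53 and Tmsb4x, which binds actin monomers, 1.49. B2m and Sod1 were at 0.41 and 0.13.

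In glycolysis 13 of 16 genes were tested, 2 were called higher and 0 lower (3.59% and 1.03% over all genes), and the median was 0.54. Without the 83 nuclei near the limit of the rule 1 was called (2.65% over all genes), as Aldoa was then at 0.90. Pgam1 and Aldoa were at 1.20 (0.92 to 1.48) and 1.02 (0.66 to 1.38), Pkm was at 0.79, and Pgk1 and Pfkp were at -0.46 and -0.41. Of 26 genes of the secretory pathway, whose mRNAs are translated at the endoplasmic reticulum, 23 were tested. Among them 2 were called higher and 0 lower (3.59% and 1.03% over all genes), with a median of 0.43. Without the 83 nuclei 22 were tested and 0 called (2.65% higher and 0.751% lower over all genes), with a median of 0.42. The calls in this list thus ended while its median stayed. Srp14, of the signal recognition particle, had a log2 ratio of 1.13, and Ssr2, of the translocon, had 25.1 CPM against 11.7 CPM.

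**Figure D2:**
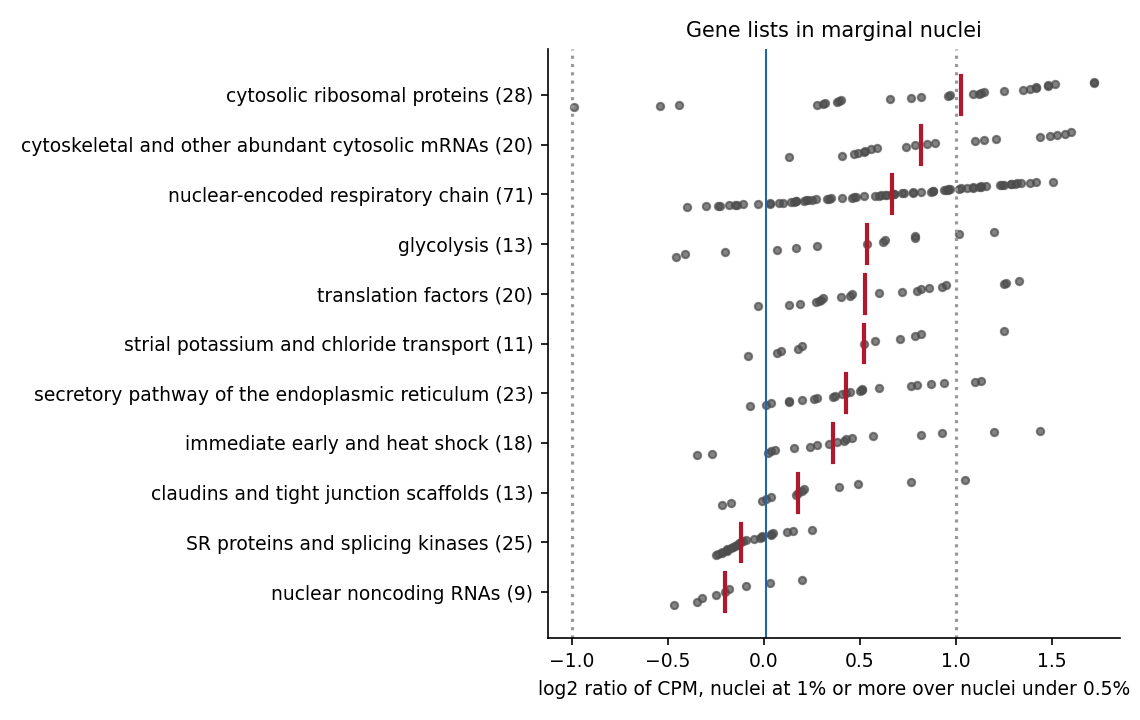
Log2 ratio of CPM in marginal nuclei, 1% or more over under 0.5% mitochondrial share (x axis), for the tested members of 11 gene lists (y axis, number of members in brackets). Points are genes, red bars list medians, the blue line the median of all tested genes (0.01), and dotted lines 2-fold; list medians run from 1.03 for ribosomal proteins to -0.20 for nuclear noncoding RNAs.

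Nuclear noncoding RNAs and the mRNAs of nuclear splicing proteins had medians below 0. Of 15 nuclear noncoding RNAs, 9 were tested and 0 were called in either direction (at a fold of 2, with no test), where 3.59% of all genes were called higher and 1.03% lower, 7 of the 9 ratios were below 0, and the median was -0.20. Their sum was 64106 CPM (63551 to 64664) at 1% or more and 72324 CPM (71995 to 72654) under 0.5%. Malat1 made up most of this sum. Neat1, the scaffold of paraspeckles, had a log2 ratio of -0.09 (-0.21 to 0.03) and Firre -0.35 (-0.59 to -0.11). SR proteins act in splicing, but their mRNAs are translated in the cytoplasm like others. All 25 SR protein and splicing kinase genes were tested and 0 were called (3.59% higher and 1.03% lower over all genes). Of their ratios, 19 of 25 were below 0, with a median of -0.12 and a range of -0.25 to 0.25. Srsf3 was the highest at 0.25 and Srsf7 the lowest at -0.25.

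Of 15 genes of potassium and chloride transport in the SV, 11 were tested, 1 was called higher and 0 lower (3.59% and 1.03% over all genes), and the median was 0.52. Atp1b2, a regulatory subunit of the sodium pump, had 1339 CPM against 773 CPM, a log2 ratio of 0.79 (0.68 to 0.90). Kcnj10, the potassium channel of intermediate cells, was the called gene, with 119 CPM against 50.1 CPM and a log2 ratio of 1.25 (0.85 to 1.64). Bsnd, the subunit of the chloride channels of marginal cells, was at 0.07 (-0.49 to 0.60). Among claudins and tight junction scaffolds 13 of 20 were tested, with Cldn9 as the only one called (3.59% over all genes) and a median of 0.18. Cldn3 was at 0.77 (0.19 to 1.33) and Cgnl1, a junction scaffold, at -0.22 (-0.39 to -0.05). Immediate early and heat shock genes, which respond to handling of the tissue, had 18 of 27 tested, 2 called higher and 0 lower (3.59% and 1.03% over all genes), and a median of 0.36. The called genes were Ier3 at 1.44 and Jund at 1.20 (0.86 to 1.54), while Hspa8 was at 0.93 and Hsph1 at -0.35.

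The 12 genes with the highest ratios, among those with at least 100 UMIs and no nucleus with over 10% of the UMIs, were Gm28438, Gm6265, 1700030F04Rik, Gm12338, Rpl8, Gm15427, Polr2m, Fth1, Ftl1, Gm9794, Tmem176b and Gng5, with log2 ratios from 3.02 to 1.51. The first of them is a nuclear copy of a mitochondrial gene. Gm28438, an unprocessed pseudogene on chromosome 1 (GRCm38, 24612775 to 24613119), had 152 UMIs at 1% or more and 60 under 0.5%, a log2 ratio of 3.02 (2.58 to 3.48). Of its 31-base words, 99.0% occur in mt-Nd3, a subunit of complex I encoded in the mitochondrial genome. The first 30 bases of both transcripts in GENCODE M21 are shown because the name of Gm28438 kept it out of the mitochondrial share; the capital letter marks the 1 difference over the 345 bases compared, T3C counted from the first base of mt-Nd3.
mt-Nd3: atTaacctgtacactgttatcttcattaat
Gm28438: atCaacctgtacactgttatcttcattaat
The gene mt-Nd3 itself held 3 UMIs at 1% or more and 1 under 0.5%. Reads from these genes can hardly be told apart, so the ratio of Gm28438 is not read as a result on nuclear genes.

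Other genes at the top were also short copies of highly expressed genes. Gm12338 shares 100% of its 31-base words with Cox7c, Gm9794 shares 92.1% with Rpl23, and Gm6265, whose identifier is named Cox6c2 in GENCODE M21, shares 61.7% with Cox6c. Over all tested pseudogenes, 28 of 56 were called higher and 0 lower (3.59% and 1.03% over all genes), with a median log2 ratio of 0.97. With a rule-gene sum of at least 1%, 16 of 53 were higher (30.2%) and 0 lower, with a median of 0.87. Over all genes the shares were then 2.65% and 0.751%. Which of these reads came from the parent genes cannot be read from the counts.

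Of the 80 lower genes, 10 met the same limits, among them Aste1, Hacd2, Mre11a, Gm12940, Nfatc2, Bms1, Uchl5, Pnpla7 and Gfra1. Aste1 was the lowest, with 6 UMIs against 97 and a log2 ratio of -2.33 (-3.82 to -1.16). Mre11a, a nuclease of DNA double-strand break repair, was at -1.23 (-2.19 to -0.39) and Hacd2, an enzyme of fatty acid elongation, at -1.43 (-2.43 to -0.57). Gfra1 rested in part on the nuclei near the limit of the rule, which held 40.0% of its UMIs under 0.5%. Without these nuclei its ratio was -0.40, against -1.02 with them.

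The higher genes were mostly short in the genome. Of the 279 higher genes, 234 (83.9%) spanned at most 20 kb, against 18 of the 79 lower genes found in the annotation (22.8%) and 2340 of 7763 tested genes (30.1%). Among protein-coding genes, the median log2 ratio was 1.09 for the 49 genes of at most 2 kb, 0.54 for the 266 of 2 to 5 kb, 0.32 for the 585 of 5 to 10 kb, 0.14 for the 1277 of 10 to 20 kb and 0.02 for the 2398 of 20 to 50 kb. It was -0.05, -0.08 and -0.13 for genes of 50 to 100 kb, 100 to 200 kb and over 200 kb. Of the 49 shortest genes 28 were called higher (57.1%), and of the 534 longest 7 (1.31%). With the rule-gene sum of at least 1% the medians ran from 0.98 for the shortest to -0.11 for the longest.

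Genes of like span differed between the lists. Among the SR protein and splicing kinase genes, 12 spanned at most 20 kb, with a median of -0.05, against 0.23 for all 2177 protein-coding genes of that span. Only 3 of the 25 genes of this list stood above the median of their span class. Srsf2, with a span of 3.19 kb, had a log2 ratio of 0.12, and 208 of the 266 genes of its class (78.2%) were higher. The respiratory chain genes stood on the other side, with 54 of 71 above the median of their class, as did 19 of 20 cytoskeletal and cytosolic genes and 20 of 23 secretory pathway genes. Ribosomal protein genes, with a median span of 3.23 kb, had 19 of 28 above it. Of all protein-coding genes of 2 to 5 kb, 25.9% were called higher. Claudins and scaffolds had 7 of 13 above their class. Immediate early and heat shock genes had 8 of 18, with a median log2 difference of -0.10 from their class. Among the marginal markers, Kcne1 was exceeded by 91 of the 1277 genes of 10 to 20 kb (7.13%) and Spp1 by 53 of the 585 genes of 5 to 10 kb (9.06%). Dnase1 was exceeded by 43.6% of the genes of 2 to 5 kb and Cldn9 by 51.0% of those of at most 2 kb.

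**Figure D3:**
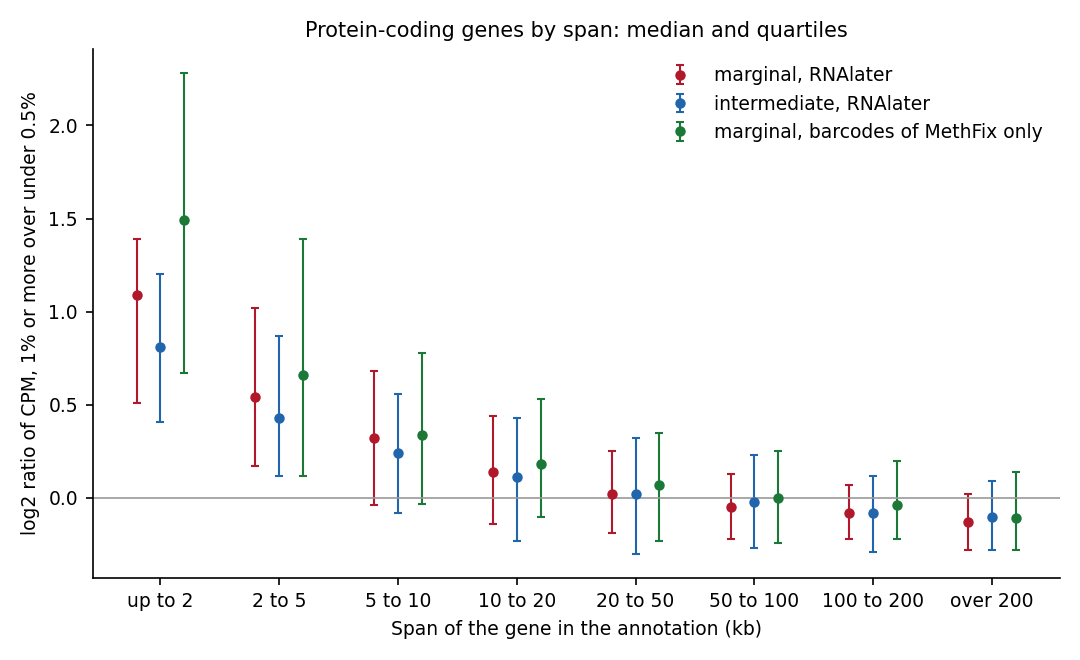
Log2 ratio of CPM, 1% or more over under 0.5% mitochondrial share (y axis), of protein-coding genes by span in kb (x axis) in 3 sets of nuclei. Points are medians over genes and bars the quartiles; in marginal nuclei of the RNAlater dataset the median falls from 1.09 at up to 2 kb to -0.13 over 200 kb.

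Markers listed for other SV cell types were also higher in the marginal nuclei at 1% or more. Of the 8 intermediate cell markers, 5 were tested, with 0 called (3.59% over all genes), 5 of 5 ratios above 0 and a median of 0.71, and their sum was 4870 CPM against 2896 CPM. Ptgds, a prostaglandin synthase, gave most of the sum, with 3720 CPM against 2160 CPM (log2 ratio 0.78). Ptgds was, however, at 2565 CPM over all marginal nuclei and at 1130 CPM in intermediate nuclei, so it did not mark intermediate nuclei here and neither does the sum. Dct had 955 CPM against 616 CPM, a log2 ratio of 0.63 (0.51 to 0.76), and 1 nucleus held 13.6% of its UMIs at 1% or more. Without the 83 nuclei Dct was at 500 CPM against 249 CPM, a log2 ratio of 1.01 (0.82 to 1.20). Gpnmb, a melanosome glycoprotein, was then at 1.03 (0.39 to 1.66), so that 2 of 4 tested members were past 2-fold, against 2.65% of all genes. The median of Dct over all nuclei of each group was 404 CPM (295 to 478) against 221 CPM (190 to 265). The defining pigment gene Tyrp1 was at 0 UMIs in both groups and Pmel at 1 and 0, and in all 504 intermediate nuclei they were at 0 and 2 UMIs. Of the 6 genes that defined the intermediate class, 4 were tested and 1 (Kcnj10) was called higher (3.59% over all genes). The 6 genes summed to 829 CPM (767 to 894) against 792 CPM (758 to 828). Of 8 basal cell markers 4 were tested and 2 were called higher (3.59% over all genes), with a median of 0.96. The list summed to 312 CPM against 183 CPM. Of the tested members, Cldn11, Slc2a1 and Fat2 were highest in the remaining barcodes. Nrp2 was at 1504 CPM in intermediate nuclei and 77.7 CPM in the remaining barcodes, so neither it nor the sum is read as a basal marker here. Spindle and root cell markers summed to 291 CPM (255 to 331) against 250 CPM (231 to 270).

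Rarer types were near the detection limit. Fibrocyte and bone markers summed to 110 CPM against 36.8 CPM, led by Coch, of whose 38 UMIs at 1% or more 1 nucleus held 68.4%. Without the 83 nuclei the fibrocyte and bone sums were 36.8 CPM and 37.2 CPM. Macrophage markers summed to 32.6 CPM (21.3 to 47.8) against 12.1 CPM (8.24 to 17.2), endothelial and pericyte markers to 26.3 CPM against 7.82 CPM, and red blood cell markers to 20.1 CPM against 18.0 CPM, with 0 members of these 3 lists tested. Cd74 was at 0 UMIs in both groups. The part of such RNA in the higher levels of the lists above was not tested.

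The same comparison was made in the 504 intermediate nuclei, of which 55 had a mitochondrial share of 1% or more and 334 a share under 0.5%. Of 5896 genes tested there, 131 (2.22%) were higher and 179 (3.04%) lower. Of the 279 genes called higher in marginal nuclei, 127 were tested in intermediate nuclei, where 112 had a ratio above 0 and 38 (29.9%) were past 2-fold, against 2.24% of all genes tested in both. Of the 80 lower genes, 26 were tested and 17 had a ratio below 0, with 0 past 2-fold (2-fold limit, no test). Over all genes tested in both, 2676 of 5455 had a ratio below 0 and 151 (2.77%) were lower past 2-fold. Spp1 was at 582 CPM against 438 CPM, a log2 ratio of 0.41 (0.16 to 0.66). Dnase1 was at 294 CPM against 230 CPM, a ratio of 0.35 (-0.01 to 0.70). Kcne1 was at 61.8 CPM against 47.1 CPM, a ratio of 0.39 (-0.45 to 1.15). The intervals of Dnase1 and Kcne1 included 0. After thinning, a UMI was found in 31.5% against 39.9% of nuclei for Spp1, 38.9% against 21.9% for Dnase1 and 1.85% against 5.71% for Kcne1. Fth1 and Ftl1 had log2 ratios of 1.49 (1.33 to 1.65) and 1.48 (1.21 to 1.75), close to those in marginal nuclei. Ribosomal proteins summed to 1345 CPM against 880 CPM, and the respiratory chain to 4329 CPM against 3112 CPM. Dct, a marker of the intermediate nuclei, was at 21707 CPM against 18475 CPM, a log2 ratio of 0.23 (0.19 to 0.27). In the 1052 barcodes within the limits that were neither marginal nor intermediate, a mixture of types, 803 of 8128 genes (9.88%) were higher and 905 (11.1%) lower. Kcne1 was there at 119 CPM against 65.4 CPM, a log2 ratio of 0.86 (0.51 to 1.21), close to that in marginal nuclei. Spp1 had a ratio of 0.26 (0.13 to 0.40), Dnase1 of 0.28 (0.11 to 0.45) and Cldn9 of -0.13 (-0.70 to 0.42). The part of the mixture of types in these ratios was not tested.

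In the MethFix matrix, 544 marginal nuclei by the same rule had barcodes not found in the RNAlater matrix, 337 of them at 1% or more and 79 under 0.5%. They were shallower, with medians of 2801 and 3106 UMIs. Their median mitochondrial shares were 3.04% and 0.350%. Their rule-gene sums were lower, with medians of 1.12% and 1.27% of UMIs against 1.85% and 1.82% in the RNAlater marginal nuclei. Of these nuclei, 203 and 55 had a sum of at least 1%. The marginal label was checked only in the RNAlater matrix and is carried over here. Of 4695 genes tested, 261 (5.56%) were higher and 15 (0.319%) lower. The minimum of UMIs applied to both groups together, so a gene higher in the group with more UMIs passed it more easily. In this set the nuclei at 1% or more held more, with 1028668 nonmitochondrial UMIs against 280366. In the marginal and intermediate RNAlater nuclei those under 0.5% held more, at 2556759 against 797605 and 1826612 against 275118. The counts of higher and lower genes are therefore not compared between sets. The same minimum decided which of the 279 and 80 genes were tested in each set, so the shares of them with like ratios are also affected by it. Of the 279 higher genes 114 were tested in these MethFix nuclei, of which 111 had a ratio above 0 and 73 (64.0%) were past 2-fold, against 5.09% of all genes tested in both. Of the 80 lower genes 11 were tested and 4 had a ratio below 0, and 0 were past 2-fold (2-fold limit, no test), against 2201 and 14 (0.302%) of all 4636 genes tested in both. With a rule-gene sum of at least 1%, 119 of 3075 genes (3.87%) were higher and 16 (0.520%) lower, and 64 of the 279 genes were tested, of which 61 had a ratio above 0 and 44 (68.8%) were past 2-fold, against 1468 and 117 (3.81%) of all 3069 genes tested in both. Of the 80 lower genes 1 was tested there, and its ratio was above 0.

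Spp1 had 1353 CPM against 745 CPM in these MethFix nuclei, a log2 ratio of 0.86 (0.65 to 1.08), and Dnase1 had 1063 CPM against 685 CPM, a ratio of 0.63 (0.41 to 0.86). Kcne1 had 556 CPM against 424 CPM, a ratio of 0.39 (0.10 to 0.69) whose interval ended where that in the RNAlater nuclei began. Cldn9 rested on 77 and 16 UMIs, with a ratio of 0.39 (-0.40 to 1.27). Kcnq1 had a ratio of -0.29 (-0.41 to -0.16) and Slc12a2 of -0.16 (-0.24 to -0.08), the latter with the sign opposite to that in the RNAlater nuclei. Fth1 reached 1453 CPM against 193 CPM, a ratio of 2.92 (2.52 to 3.34). Dct was at 4250 CPM against 4088 CPM, where the RNAlater marginal nuclei had 955 CPM and 616 CPM. Ribosomal proteins summed to 1828 CPM against 863 CPM, and nuclear noncoding RNAs to 163490 CPM against 175371 CPM. With a rule-gene sum of at least 1%, the noncoding sums were 147280 CPM and 146934 CPM, a log2 ratio of 0.00 (-0.02 to 0.02), Spp1 was at 1371 CPM against 649 CPM and Dct at 2499 CPM against 2413 CPM. The SR protein and splicing kinase genes had a median of 0.10 in all these MethFix nuclei, above 0 unlike in the RNAlater nuclei. The 18 protein-coding genes of at most 2 kb that passed the minimum of UMIs had a median of 1.49. Genes higher at 1% or more passed this minimum more easily here. These levels set 1 matrix beside another with other depth, mitochondrial shares, rule-gene sums and, by the labels, preservation. Those differences cannot be told apart.

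**Figure D4:**
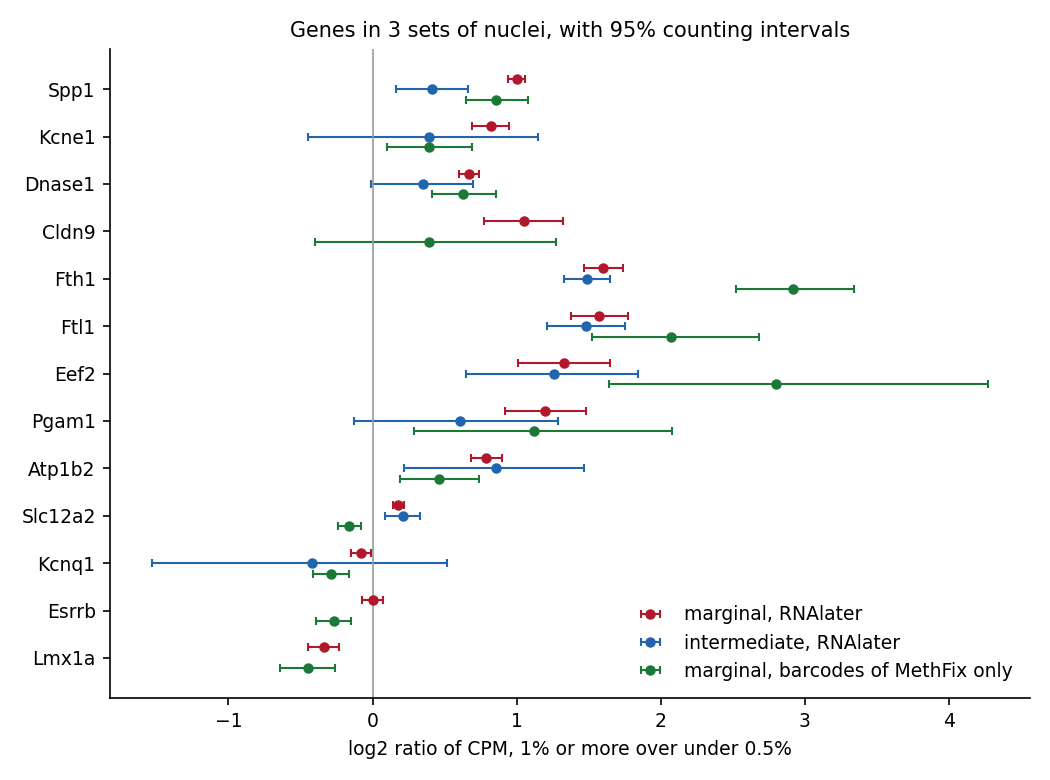
Log2 ratio of CPM, 1% or more over under 0.5% mitochondrial share (x axis), of 13 genes (y axis) in marginal and intermediate nuclei of the RNAlater dataset and in marginal nuclei with barcodes of the MethFix matrix only. Bars are exact 95% counting intervals and ratios on under 50 UMIs are left out; Spp1 stands at 1.00, 0.41 and 0.86, and Kcnq1 at -0.08, -0.42 and -0.29.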

How the data were processed

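Nuclei were captured on the 10x Genomics platform. The authors made UMI counts per gene and barcode with Cell Ranger 3.0.1 on an mm10 (GRCm38) reference and deposited them as raw counts of called barcodes, without normalization. Whether intronic reads were counted is not given in the sources used here. Mitochondrial genes were those named mt-. UMIs of all other genes were summed over the nuclei of each group and divided by their total (CPM). A group at 0 was set to a floor of 3 UMIs, and no ratio was given where both groups were at or below it. Genes needed 50 UMIs in both groups together. Named genes were the 8 rule genes, 4 markers, up to 3 highest and 3 lowest members of each of 21 lists, any cell type marker at 0, and the 12 highest and 12 lowest genes called with at least 100 UMIs and no nucleus above 10% of the higher group's UMIs. The members, lists and tests were chosen with earlier results of these data known. Gene spans came from GENCODE M21, matched by identifier without version for 7763 of 7773 genes, and coordinates are printed only where the version was the same. Copies were sought by shared words of 31 bases. Intermediate nuclei had at least 0.5% of UMIs from Kcnj10, Kcnj13, Met, Mitf, Tyr and Trpm1, above their marginal rule-gene sum, and were not marginal by the rule. The computation of the ratio and its interval was checked on simulated Poisson sums per group. These sums held no variation between nuclei, so the check does not show how the intervals perform in these data. Alternatives included TMM factors of edgeR 4.0.16, DESeq2 1.42.0 size factors and Scrublet in scanpy 1.11.5, with Python 3.11.15, scipy 1.17.1 and R 4.3.3. edgeR and DESeq2 gave scaling factors only, since 1 library allows no test. The 107 added features (spike-ins and transgenes) held 0 UMIs. Some genes that the naming rule selects are not reported here.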

Additional observations from a re-analysis of the deposited data

Results flagged for a closer look

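Ebf1, a transcription factor gene of 391 kb, was higher in marginal nuclei at 1% or more and lower in intermediate nuclei at 1% or more, each past 2-fold. In marginal nuclei it had 78 UMIs at 1% or more and 49 under 0.5%, a log2 ratio of 2.35 (1.82 to 2.90), and in intermediate nuclei 2 and 78 UMIs, a log2 ratio of -2.55 (-5.63 to -0.65). The difference between the types was not tested, since both come from 1 library. A single nucleus held 26.9% of the UMIs at 1% or more, and without the nuclei with a rule-gene sum under 1% the marginal ratio was 0.86 (-0.12 to 1.79).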

How the results depend on the processing

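Of 20 other settings, 2 were chosen after seeing the data. In the 16 that recompute them, the ratios of Spp1, Dnase1, Cldn9 and Kcne1 stayed above 0, with ranges of 0.89 to 1.55, 0.57 to 1.22, 0.94 to 1.44 and 0.72 to 1.07. These settings include the MethFix counts of the shared barcodes, which are not an independent repeat. They also include totals without Malat1, TMM and the median of ratios, which shift all ratios alike. For nuclei at 2% or more the ratios were 1.22, 0.82, 1.44 and 1.03. Against nuclei under 0.25%, Spp1 was at 1.14 and Dnase1 at 0.78. Without the limit on UMIs, Spp1 was at 1.55, Dnase1 at 1.22 and Kcne1 at 1.07. TMM moved the median of all genes from 0.01 to -0.09 and gave 0.89 for Spp1 and 0.57 for Dnase1. The median of ratios gave 0.90 and 0.57. Its size factors, 0.57735 and 1.73205, were taken without a minimum of UMIs and so include genes with few UMIs. They are not read as a check on TMM. Spp1 was at 1.06 as a mean over nuclei, 1.07 after thinning to 1000 UMIs and 0.91 without barcodes over 5% mitochondrial UMIs.

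The number of higher genes depended on the settings more than the ratios did. It was 461 (with 210 lower) for nuclei at 2% or more, 591 without the limit on UMIs, 559 (153 lower) as a mean over nuclei, 63 after thinning, 611 (285 lower) with a minimum of 20 UMIs, 46 (7 lower) with 200, 1394 (633 lower) with no minimum, and 866 (392 lower) at 1.5-fold. It was 153 without the barcodes over 5%, and 157 (51 lower) with a rule sum of at least 1% and without nuclei at 0.2% or more of intermediate class genes. Against nuclei under 0.25%, 47 were lower. The cause of these changes was not tested, except that fewer genes entered after thinning (2541) and with a higher minimum (3331). The median of the claudin list, 0.18, was -0.02 as a mean over nuclei and -0.07 after thinning, where the median of all genes was -0.02 and -0.08. Scrublet marked 18 of 2329 barcodes (0.773%), 3 and 1 of them in the groups compared. No paired analysis was possible because each preservation method is 1 library and the groups compared lie within 1 library. The lower genes had a median of 79 UMIs in both groups together and the higher genes 86.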
